A study of Mus musculus with 15 samples.

Results

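The immediate early genes described here are Egr1, Arc, Fos, Fosb, Jun, Junb, Dusp1, Nr4a1 and Ier2, which are 9 of the 16593 named genes on the array. They were picked out by gene symbol, from a list drawn up with earlier results of these data known, and each had 1 probe. Their transcripts were read on bead arrays from CA3, a pyramidal cell field of the hippocampus, cut out by laser microdissection from newborn mouse brains. The KO outer group was the external part of the CA3 layer of doublecortin (Dcx) knockout mice, and the KO inner group was the internal part of the same layer. Both came from the same 5 KO animals. The WT group was the undivided CA3 layer of 5 wild-type mice, so that 15 arrays stood for 10 animals. All animals were taken at P0, the day of birth, and RNA was made for each brain from pooled dissected pieces. The labels call the genotype mutant and state neither the allele nor the strain or sex of the animals. The questions are whether these genes differed between the parts of the split layer, and how each part stood to WT.

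Immediate early genes are transcribed within minutes of a stimulus, before any new protein has been made. In hippocampal neurons, calcium entry and growth factor receptors act through the ERK and calmodulin-dependent kinases on factors already bound to their promoters, among them CREB and the serum response factor. Most of the products are transcription factors (Egr1, the Fos and Jun proteins of the AP-1 dimer, the orphan nuclear receptor Nr4a1). Arc acts at synapses, where it promotes the uptake of AMPA receptors, and Dusp1 is a phosphatase that switches MAP kinases off. In the mature hippocampus these transcripts are used as marks of recent neuronal activity, but many other cell types also induce them.

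Promoter windows from RefSeq (GRCm38.p6) were searched for 6 of the 9 genes, each running from 250 bases before to 50 after the annotated start. Egr1 was left out of this search, so its motifs are not described, and no window was available for Arc or Ier2. The windows of Jun, Junb and Dusp1 are shown because these genes gave a measurable signal and did not all move the same way. Capitals mark matches to TGACG, the short form of the cyclic AMP response element to which CREB binds, or to TGACNTCA, the palindromic form with 1 base left free, on either strand.

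Jun: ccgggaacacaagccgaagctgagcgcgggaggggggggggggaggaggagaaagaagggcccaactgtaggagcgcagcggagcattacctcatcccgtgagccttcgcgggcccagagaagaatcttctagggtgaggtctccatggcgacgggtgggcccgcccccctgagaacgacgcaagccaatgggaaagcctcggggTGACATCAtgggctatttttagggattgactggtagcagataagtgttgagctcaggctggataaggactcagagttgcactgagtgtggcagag

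Junb: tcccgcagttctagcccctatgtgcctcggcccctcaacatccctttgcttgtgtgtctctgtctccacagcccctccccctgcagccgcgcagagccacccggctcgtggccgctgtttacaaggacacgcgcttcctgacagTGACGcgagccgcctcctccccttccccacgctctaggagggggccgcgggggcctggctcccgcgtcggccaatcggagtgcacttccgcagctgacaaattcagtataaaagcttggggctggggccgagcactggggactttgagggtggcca

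Dusp1: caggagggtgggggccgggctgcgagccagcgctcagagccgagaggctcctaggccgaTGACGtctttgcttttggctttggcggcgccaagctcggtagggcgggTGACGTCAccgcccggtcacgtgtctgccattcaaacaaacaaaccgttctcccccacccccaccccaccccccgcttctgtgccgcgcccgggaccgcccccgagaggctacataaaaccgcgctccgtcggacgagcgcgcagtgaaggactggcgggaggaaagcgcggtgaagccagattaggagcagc

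The Jun window lies at chr4:95052173-95052472, the Junb window at chr8:84978699-84978998 and the Dusp1 window at chr17:26508423-26508722, all on the minus strand and printed in the direction of the gene. With positions counted from the annotated start, Jun held 1 match to the palindromic form, TGACATCA, at −45, and 0 to TGACG. Junb held 1 TGACG, at −106. Dusp1 held TGACGTCA at −143, which contains a TGACG on each strand, and a further TGACG at −191. Of the windows not shown, Fos held 2 matches to TGACG, Fosb 1 and Nr4a1 4. Over all 32851 RefSeq windows of this length, 20.8% held TGACG and 8.83% held TGACNTCA. The AP-1 motif TGANTCA (7.81% of all windows) and the CArG box, to which the serum response factor binds (1.63%), had 0 matches in the 6 windows. The EGR motif GCGNGGGCG (5.55%) had 1 match each in Fosb and Nr4a1. The letters of a window do not show whether a factor was bound in this tissue.

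The deposited signals were background-corrected against 1114 control entries that carry no probe and were quantile-normalized, and a probe was called detected on an array where its detection p-value against those entries was under 0.01. Only 5 of the 9 genes were detected on at least 5 of the 15 arrays and were tested. Egr1, Jun and Dusp1 were detected on 15 arrays, Junb on 14 and Arc on 11. Fos was detected on 4 arrays (outer array 2 and inner arrays 1, 2 and 4), and Fosb, Nr4a1 and Ier2 on 0. Signal over background was small for most of the genes. On the deposited log2 scale, Egr1 lay 0.67 to 2.60 above the 99th percentile of the control entries and Dusp1 1.39 to 2.39. Jun lay 0.45 to 1.04 above it, Junb between −0.01 and 0.72, and Arc between −0.12 and 0.44. Arc and Junb are therefore measured close to background, and with 5 arrays a group the precision of every gene is limited.

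**Figure D1:**
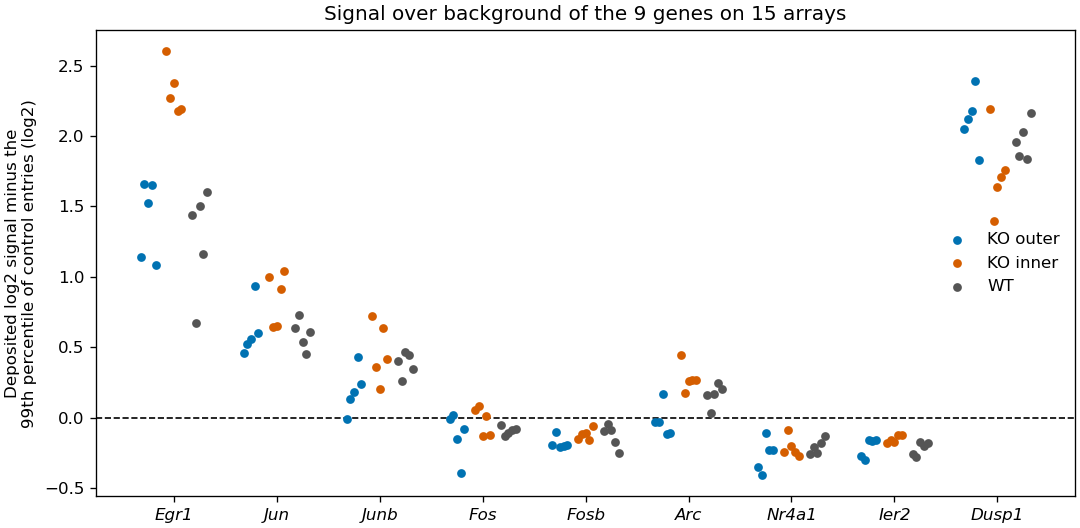
Deposited log2 signal of each of the 9 genes minus the 99th percentile of the control entries of the same array (vertical axis, log2), with 1 point for each of the 15 arrays, coloured by group. Egr1 and Dusp1 lie at 0.67 or more on every array, whereas Fosb, Nr4a1 and Ier2 lie below the dashed line at 0 on every array.

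Facts of the series that touch these values are few. The Dcx signal separated the genotypes without overlap (10.36 to 10.74 in KO, against 11.76 to 12.07 in WT, log2), and 6 of 8 CA3 field markers were detected, at a mean level of 9.78 to 10.05 in KO outer, 9.81 to 9.96 in KO inner and 9.79 to 9.92 in WT. In a second deposited table the authors had added a shift, different from entry to entry, to 8 arrays. The 8 are those of KO animals 1 to 4, and the 7 arrays of KO animal 5 and WT had none. No label names a batch, so these sets of arrays go by the names shifted and unshifted. The KO layers of an animal always share a set, whereas of the KO animals only animal 5 shares the set of the WT animals. Skeletal muscle or bone markers stood high on 7 arrays, namely outer array 1, inner arrays 1, 2 and 5 and WT arrays 1, 2 and 3. In bulk tissue, fewer cells of a type and less RNA per cell cannot be told apart.

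Between the KO layers, Egr1, Arc, Junb and Jun were lower in the outer layer and Dusp1 was higher. All 5 tested genes passed limma's adjusted p of 0.05, 4 lower and 1 higher, in a fit of the 10 KO arrays that blocks on the animal. Over all 8442 genes tested, 20.9% passed, 9.54% as higher and 11.4% as lower. The median log2 difference of the 5 genes was −0.64, against 0.03 over all genes. The authors' scaled values gave 59.5% of all calls as higher, against 45.6% here. Of these 5 genes, that table called Egr1, Junb and Dusp1, in the same directions.

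Egr1, which encodes the zinc finger transcription factor also called Zif268, had normalized log2 signals of 7.41, 7.96, 7.60, 7.58 and 7.42 on outer arrays 1 to 5, against 8.96, 9.42, 8.92, 8.51 and 8.70 on inner arrays 1 to 5. Every outer array lay below every inner array. The outer layer was 2.48-fold lower (log2 difference −1.31 ± 0.10 SE, limma adjusted p = 0.000451, 5 of 5 animals). Of all 8442 genes, 87 (1.03%) differed between the layers by as much as Egr1 or more. Within single animals the difference was between −1.55 (animal 1) and −0.93 (animal 4). In animals 3 and 4 alone, whose arrays were low in muscle and bone markers, it was −1.13 (adjusted p = 0.0226), and it passed the test under each of the 16 alternatives run.

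Jun, a subunit of AP-1, had values of 6.23, 6.27, 6.13, 6.57 and 6.66 on the outer arrays, against 6.82, 6.91, 6.50, 6.76 and 7.18 on the inner arrays. The groups overlapped, and the outer array was the lower one in each of the 5 animals. The difference was −0.46 ± 0.09 (limma adjusted p = 0.0121), or 1.38-fold lower, and it was −0.26 with quantile normalization alone (adjusted p = 0.00790) and −0.28 in animals 3 and 4 (adjusted p = 0.264). Junb, a related AP-1 subunit, had 4.88, 5.38, 5.35, 5.70 and 5.88 on the outer arrays, against 6.35, 6.22, 5.51, 6.27 and 6.05 on the inner arrays. Outer arrays 4 and 5 reached the range of the inner arrays, where array 3 was the lowest. Its difference of −0.64 ± 0.19 passed narrowly (limma adjusted p = 0.0483, 5 of 5 animals) and was spread widely, with −1.47 in animal 1 and −0.16 in animal 3. Leaving out animal 1, 2, 4 or 5 ended the Junb call, and the difference without animal 1 was −0.44. With quantile normalization alone it was −0.26 (adjusted p = 0.0251), and in animals 3 and 4 it was −0.36 (adjusted p = 0.218).

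Arc, the synaptic effector, had 4.79, 4.88, 5.31, 4.52 and 4.53 on the outer arrays, against 5.83, 5.60, 5.65, 5.51 and 5.68 on the inner arrays. It was detected on 1 of 5 outer arrays (array 3) and on all 5 inner arrays, and every outer array lay below every inner array. The log2 difference was −0.85 ± 0.12 (limma adjusted p = 0.00460, 5 of 5 animals). Since 4 of the 5 outer arrays were not above background, its size is not a fold change in transcript. It depended on the scale, with −0.44 at a neqc offset of 50 (adjusted p = 0.00205) and −0.27 with quantile normalization alone, which leaves the background in (adjusted p = 0.00503). It was −0.66 in animals 3 and 4 (adjusted p = 0.107).

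Dusp1, the MAP kinase phosphatase, went the other way. It had 8.62, 8.52, 8.43, 8.51 and 8.42 on the outer arrays, against 8.46, 8.25, 8.01, 7.92 and 8.18 on the inner arrays. The ranges met at inner array 1, and the outer array was the higher one in each of the 5 animals. The difference was 0.34 ± 0.09 (limma adjusted p = 0.0317), or 1.26-fold higher. Without any 1 of the 5 animals it ranged from 0.27 to 0.38 and did not pass (adjusted p of 0.0533 to 0.0904). In animals 3 and 4 it was 0.50 (adjusted p = 0.0890). In that fit limma called 1 of the 5 genes, and 4 had an unadjusted p under 0.05, where 3.64% of all genes were called.

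The other 4 genes showed no measurable difference between the layers, at signals that allow little to be said. In a fit without the filter on dim probes, the outer minus inner difference was −0.17 for Fos (95% interval −0.45 to 0.12), −0.10 for Fosb (−0.33 to 0.13), −0.06 for Ier2 (−0.22 to 0.09) and −0.02 for Nr4a1 (−0.24 to 0.20). Fos was detected on 1 of 5 outer arrays, 3 of 5 inner arrays and 0 of 5 WT arrays. For a gene below detection in both groups these intervals describe background and do not bound the difference in transcript.

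**Figure D2:**
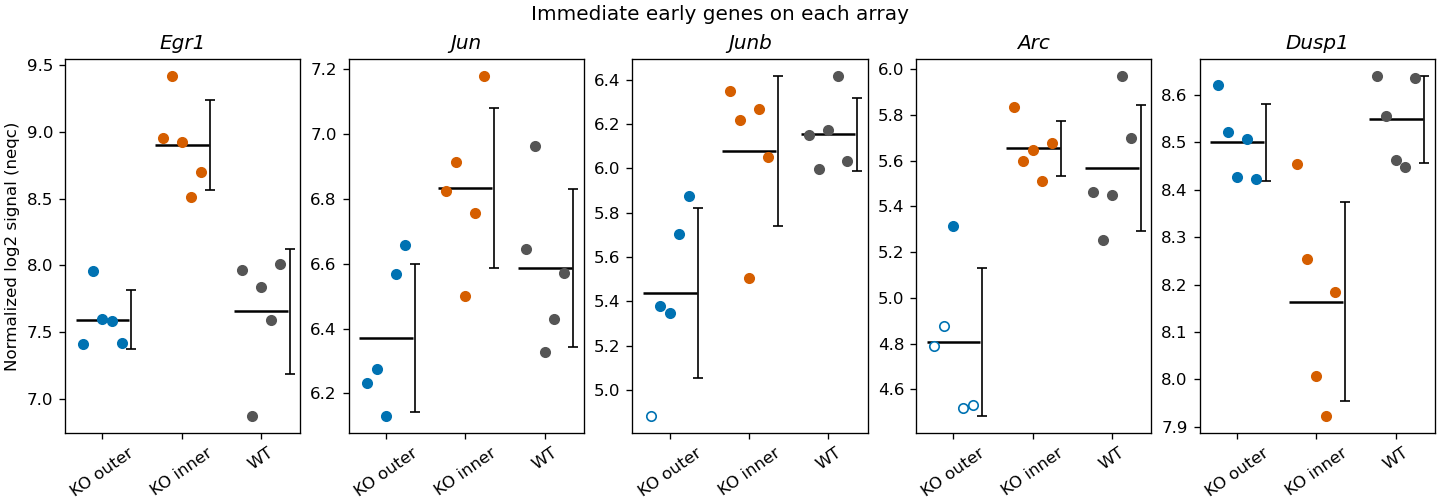
Normalized log2 signal (vertical axis, a separate scale for each gene) of the 5 tested genes on the 5 arrays of each group, with the group mean as a bar and the SD as an error bar. Filled points are detected and open points are not. Egr1 is highest on the inner arrays (8.51 to 9.42), and Arc and Junb have their lowest group mean in the outer layer. The outer arrays overlap the WT arrays for Arc and the inner arrays for Junb.

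**Figure D3:**
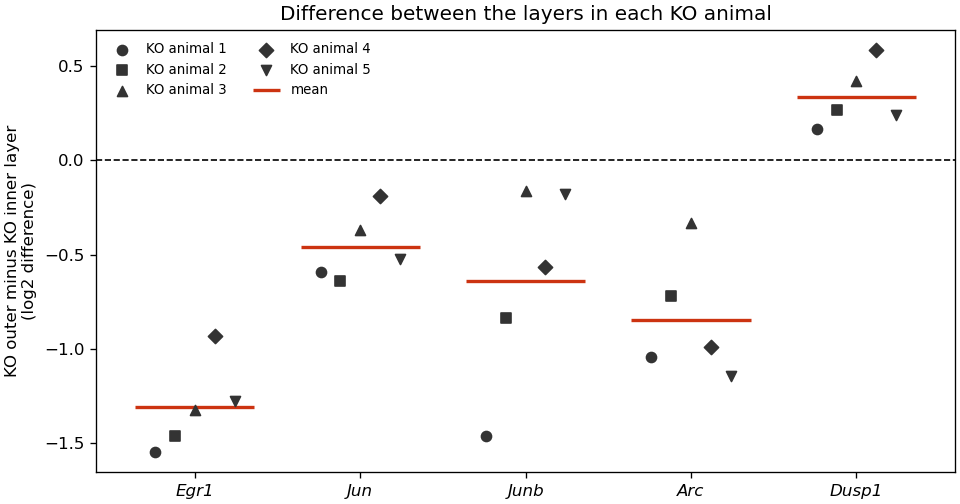
KO outer minus KO inner difference (vertical axis, log2) of the 5 tested genes in each of the 5 KO animals, with 1 symbol for each animal and the mean as a red bar. All 5 animals lie below 0 for Egr1, Jun, Junb and Arc and above 0 for Dusp1, and Junb has the widest spread.

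Mean levels of 8 of the 16 marker lists did not overlap between the KO layers. The share of all genes without overlap was not computed, so whether 8 lists are many cannot be said. By limma, which is a different measure, 20.9% of all genes were called in this comparison. Pyramidal neuron markers (9 of 10 measured, 5 called lower and 2 higher in the outer layer) had a mean level of 8.17 to 8.49 on the outer arrays, against 8.62 to 8.85 on the inner arrays. Newborn neuron markers (5 of 7, without Eomes, 4 called higher and 1, Gadd45g, lower) had 9.19 to 9.65 on the outer arrays, against 8.30 to 8.78 on the inner arrays. Radial glia markers (8 of 11) had 7.36 to 7.59 on the outer arrays, against 7.86 to 8.19 on the inner arrays, and Fabp7, Pax6 and Hopx were detected on too few arrays to be tested. Endothelial and mural cell markers (9 of 11, without Kdr) had 6.26 to 6.68 on the outer arrays, against 6.85 to 7.23 on the inner arrays. Microglia markers (5 of 11) had 4.82 to 5.31 on the outer arrays, against 5.47 to 6.45 on the inner arrays, without C1qa, Tyrobp, Trem2 and P2ry12. Oligodendrocyte lineage markers (5 of 8, without Olig2) had 6.79 to 7.05 on the outer arrays, against 7.47 to 7.65 on the inner arrays. Astrocyte markers (6 of 9, without Gfap, Aqp4 and S100b) had 7.50 to 7.75 on the outer arrays, against 7.77 to 8.69 on the inner arrays. GABAergic interneuron markers (8 of 11, without Gad2, Dlx5 and Lhx6) had 8.24 to 8.45 on the outer arrays, against 8.47 to 8.73 on the inner arrays. By limma, 6 radial glia, 8 endothelial and mural cell and 4 oligodendrocyte lineage markers were called lower in the outer layer. The same held for 3 microglia and 3 astrocyte markers, and in these 5 lists 0 were called higher. Of the GABAergic interneuron markers, 5 were called lower and 1 higher. The part of the 8 marker lists in the results for the immediate early genes was not tested.

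Against WT, the inner layer stood out for Egr1 and Dusp1. The inner layer had more Egr1 and less Dusp1 signal than WT, and the other 3 tested genes did not pass. Over all genes, 29.4% passed in this comparison, 13.7% as higher and 15.7% as lower. Of these calls 46.6% were higher, against 87.6% with median scaling and 92.9% on the deposited values as given. The values of the inner arrays given above for Egr1 stand against 7.97, 6.87, 7.84, 7.59 and 8.01 on WT arrays 1 to 5. Every inner array lay above every WT array, and WT array 2 was the lowest of its group. The difference was 1.25 ± 0.23 (limma adjusted p = 0.00512, 5 of 5 arrays), or 2.38-fold higher, and without WT array 2 it was 1.05 (adjusted p = 0.00861). Within the unshifted arrays, which set inner array 5 alone against the 5 WT arrays, it was also 1.05, and it did not pass there (adjusted p = 0.463, where limma called 0 of 8442 genes and 921 had an unadjusted p under 0.05). With arrays high in muscle or bone markers left out it was 0.92 (adjusted p = 0.0285), a fit in which the inner arrays were both shifted and the WT arrays both unshifted.

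Dusp1 on the inner arrays lay against 8.64, 8.56, 8.46, 8.45 and 8.64 on the WT arrays. Inner array 1 reached the lowest WT arrays and the other 4 inner arrays lay below them. The difference was −0.38 ± 0.11 (limma adjusted p = 0.0258), or 1.31-fold lower, and −0.37 within the unshifted arrays (adjusted p = 0.444). With arrays high in muscle or bone markers left out it was −0.58 (adjusted p = 0.0420). Leaving out inner array 3 or 4 or WT array 1, 2 or 5 ended this call, with differences of −0.35, −0.32, −0.36, −0.38 and −0.36. Arc differed by 0.09 (95% interval −0.20 to 0.38), Junb by −0.07 (−0.42 to 0.27) and Jun by 0.25 (−0.08 to 0.57), and none of these passed. Marker lists that did not overlap between the inner layer and WT were those of radial glia (7.86 to 8.19 in the inner layer, against 7.23 to 7.51 in WT), astrocytes (7.77 to 8.69, against 7.16 to 7.55 in WT), the oligodendrocyte lineage (7.47 to 7.65, against 6.74 to 7.17 in WT), pyramidal neurons (8.62 to 8.85, against 8.19 to 8.48 in WT), GABAergic interneurons (8.47 to 8.73, against 7.85 to 8.30 in WT) and neurons at large (9.79 to 10.11, against 9.52 to 9.71 in WT). The share of all genes without overlap was not computed here either. The part of these lists in the Egr1 and Dusp1 values was not tested.

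Against WT, the outer layer had less Arc and Junb signal, in sizes that varied with the scale, while Egr1, Jun and Dusp1 did not pass. Over all genes, 15.1% passed in this comparison, 8.33% as higher and 6.81% as lower. Of these calls 55% were higher, against 93.5% with median scaling, 96.5% on the deposited values as given and 71.6% on the authors' scaled values. Arc on the outer arrays lay against 5.46, 5.25, 5.45, 5.97 and 5.70 on the WT arrays, all 5 of them detected. Outer array 3 overlapped the WT arrays and the other 4 outer arrays lay below them. The difference was −0.76 ± 0.17 (limma adjusted p = 0.0256), again with 4 of 5 outer arrays not above background, so that its size is no fold change in transcript. It was −0.25 with quantile normalization alone (adjusted p = 0.0308), −0.19 with median scaling (0.143) and −0.11 on the deposited values as given (0.857). Within the unshifted arrays outer array 5 alone, which was not above background, stood at −1.04 to WT (adjusted p = 0.613). With arrays high in muscle or bone markers left out it was −1.02 (adjusted p = 0.252). Leaving out outer array 2, 3 or 4 or WT array 3 or 4 ended the Arc call, with differences of −0.78, −0.89, −0.69, −0.79 and −0.66. Calls over all genes also varied widely, from 3 to 2645 in the leave-one-out fits of this comparison, against 1278 in the full fit. The fit without high arrays called 0.0237% of all genes. This applies to Arc and Junb alike.

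Junb on the outer arrays lay against 6.15, 5.998, 6.17, 6.42 and 6.03 on the WT arrays, and every outer array lay below every WT array. The difference was −0.72 ± 0.17 (limma adjusted p = 0.0267). It was −0.29 with quantile normalization alone (adjusted p = 0.0217), −0.19 with median scaling (0.175), −0.11 on the deposited values as given (0.857) and −0.28 within the unshifted arrays (0.741). With arrays high in muscle or bone markers left out it was −0.65 (adjusted p = 0.260). Leaving out outer array 2, 3 or 4 or WT array 1, 2, 3 or 4 ended the Junb call, with differences of −0.70, −0.69, −0.78, −0.72, −0.76, −0.71 and −0.65. Egr1 differed from WT by −0.06 (95% interval −0.52 to 0.39), Jun by −0.22 (−0.53 to 0.10) and Dusp1 by −0.05 (−0.23 to 0.13), none of which passed, and for these 3 genes the sign turned under some of the other scalings. Newborn neuron markers did not overlap between the outer layer (9.19 to 9.65) and WT (8.76 to 9.11), and their part in these values was not tested. For this comparison, too, the share of all genes without overlap was not computed. The comparisons of the 2 layers with WT share the 5 WT arrays, so their values are given side by side only.

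With both layers of an animal averaged, Junb alone passed against WT, and it kept that call in 2 of 23 alternatives. KO animals had a mean Junb signal of 5.76 ± 0.24 (SD, n = 5), against 6.15 ± 0.16 (SD, n = 5) in WT, a difference of −0.40 ± 0.13 SE (limma adjusted p = 0.0444), where 22.2% of all genes passed. Of those calls 50.9% were higher, against 93.7% with median scaling, 99.8% on the deposited values as given and 67.7% on the authors' scaled values. It was −0.06 with median scaling (adjusted p = 0.662), −0.01 on the deposited values as given (0.988) and −0.19 within the unshifted arrays, and leaving out any 1 animal other than KO animal 5 ended the call. KO animal means lay above all WT arrays for Egr1 (8.25 ± 0.26, against 7.65 ± 0.47 in WT), with a difference of 0.59 ± 0.21 that did not pass (adjusted p = 0.0639). It did pass in 5 of 23 alternatives, such as 0.47 with quantile normalization alone (adjusted p = 0.0356). The differences were −0.34 for Arc (adjusted p = 0.0994), −0.22 for Dusp1 (0.0918) and 0.02 for Jun (0.945), and none passed.

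**Figure D4:**
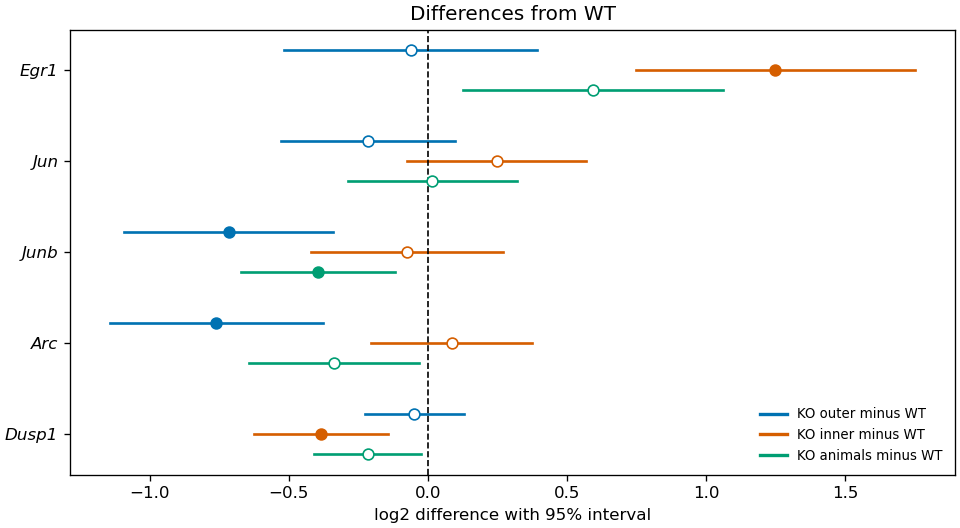
Log2 difference from WT (horizontal axis) with its 95% interval for the 5 tested genes, in the KO outer layer, the KO inner layer and KO animals (mean of both layers). Filled points passed limma's adjusted p of 0.05 and open points did not. Egr1 is at 1.25 in the inner and −0.06 in the outer layer, and Arc is at 0.09 in the inner and −0.76 in the outer layer.

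The 5 genes did not follow one profile over the 15 arrays. As a description, with arrays that share animals and a common set of shifted arrays, Pearson's r between pairs of the 5 genes lay between −0.61 (Egr1 with Dusp1) and 0.61 (Arc with Junb). The genes whose profile over the 15 arrays was most like that of Egr1 were Klf9 (r = 0.95), Lrig1 (0.95), Golm1 (0.93), Cpne6 (0.92) and Dhrs7 (0.91). Klf9, a Krüppel-like transcription factor, had 7.91 to 8.53 on the outer arrays, 9.35 to 9.80 on the inner arrays and 7.93 to 8.75 on the WT arrays, so that only the inner arrays stood apart. Most like the mean profile of the 5 genes were Icam5 (r = 0.94), Dgkz (0.94), Pdgfb (0.93), Epdr1 (0.93) and Gpr83 (0.92). Over the 5 outer minus inner differences, where 5 points bring many genes close to 1, the genes nearest to Egr1 were Prc1, Kcnma1, Oaz1, Shmt1 and Pacsin2 (r of 0.99 to 1.00), and those nearest to the mean of the 5 were Sec22c, Smo, Trim9, Mrpl27 and Ammecr1l (r of 0.99 to 1.00).

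Among further activity-regulated genes, 38 of 58 listed could be tested. Of these, 12 were lower and 3 higher in the outer than in the inner layer. Over all genes, 11.4% were called lower and 9.54% higher in this comparison. The median difference of the 38 genes was −0.16, against 0.03 over all genes. Dusp6, a phosphatase of ERK, had 9.69 to 9.88 on the outer arrays, against 10.69 to 10.89 on the inner arrays and 10.04 to 10.46 on the WT arrays. Its outer minus inner difference was −1.07 ± 0.08 (limma adjusted p = 0.000321), and the 3 groups took separate ranges with WT between the layers. Zfp36l1, an RNA-binding protein that speeds mRNA decay, differed by −1.01, the neurite-growth gene Nrn1 by −0.95 and the stress-response gene Gadd45g by −0.87. Gadd45g is also the newborn neuron marker called lower above, so both lists count the same gene. The neuropeptide precursor gene Vgf differed by −0.78, Gadd45a by −0.76, Ier5l by −0.69, and Bdnf, the neurotrophin gene, by −0.64. Nr4a3, a relative of Nr4a1, was 0.64 higher, and Plk3 was 0.60 lower. Bdnf had 8.61 to 8.77 on the outer arrays, against 9.21 to 9.50 on the inner arrays and 8.84 to 9.45 on the WT arrays, so that the outer arrays alone stood apart. In animals 3 and 4, 7 of the 38 genes were lower and 0 higher by limma, with 18 at an unadjusted p under 0.05 (3.64% of all genes passed there).

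Several classical members of that list gave no signal to test. Egr2, Egr3, Npas4, Atf3, Btg2 and Fosl1 were among the genes detected on too few arrays. Egr4 differed by −0.58 between the layers without passing (limma adjusted p = 0.0654), Jund by −0.21 (0.195) and Homer1 by 0.01 (0.951). Against WT, where 29.4% of all genes were called in the inner layer, 6 of the 38 were higher there and 3 lower, among them Zfp36l1 at 0.96, Per2 at −0.86, Nfil3 at −0.83, Nrn1 at 0.70, Gadd45g at 0.67 and Nptx2 at 0.67. In the outer layer, where 15.1% of all genes were called, 1 was higher, Nptx1 (0.78), and 7 were lower, among them Vgf (−0.60), Ier3 (−0.58), Plk3 (−0.54), Bdnf (−0.53) and Ier5l (−0.52). In KO animals, where 22.2% of all genes were called, 3 were higher and 3 lower, with Nptx1 at 0.68, Per2 at −0.59, Nfil3 at −0.57, Nr4a2 at −0.46, Nptx2 at 0.41 and Nrn1 at 0.23. With arrays high in muscle or bone markers left out, the inner layer had 4 higher and 3 lower (15.9% of all genes called), and KO animals had 2 higher and 6 lower (17.6% of all genes called). In the outer layer limma then called 0 of the 38, of which 13 had an unadjusted p under 0.05, in a fit of 4 outer and 2 WT arrays that called 0.0237% of all genes.

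**Figure D5:**
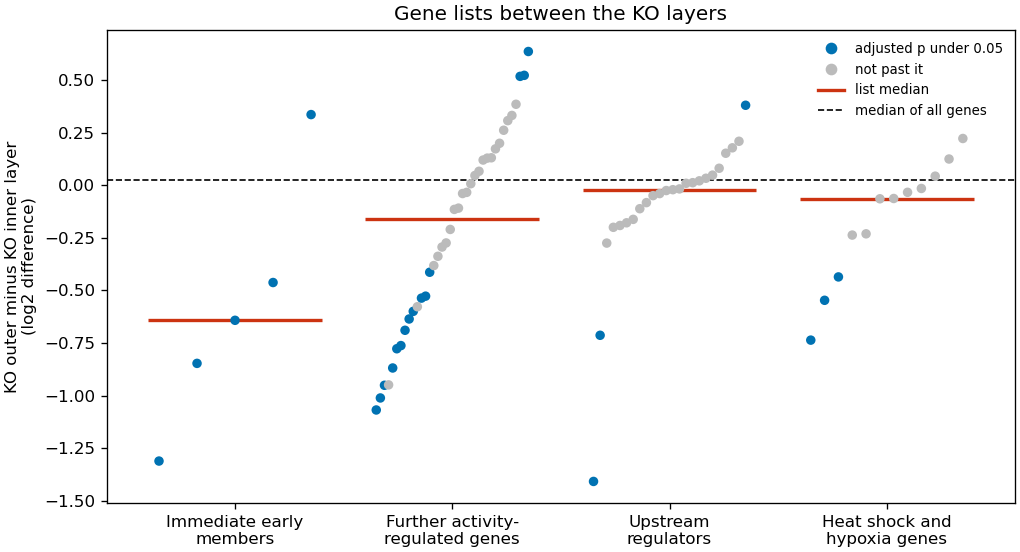
KO outer minus KO inner difference (vertical axis, log2) of each tested gene of 4 lists, sorted within a list, with genes past limma's adjusted p of 0.05 in blue, the list median in red and the median of all genes dashed. The list medians are −0.64, −0.16, −0.02 and −0.06, from the immediate early genes to the heat shock and hypoxia genes.

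Upstream regulators carry the signal from calcium and growth factor receptors to these promoters. Of 45 listed genes 24 were tested, with 2 lower and 1 higher in the outer than in the inner layer, where 20.9% of all genes were called, and a median difference of −0.02. Camk2a, a calcium-dependent kinase gene that is also a marker of maturing pyramidal neurons, had 10.17 to 10.72 on the outer arrays, against 11.78 to 12.11 on the inner arrays and 10.88 to 11.18 on the WT arrays (outer minus inner −1.41 ± 0.13). Mef2c, an activity-regulated transcription factor gene, differed by −0.71, and Rps6ka5, a kinase of CREB and histone H3, by 0.38. Srf, which encodes the serum response factor, differed by 0.05 (adjusted p = 0.743), and Nab2, a corepressor of EGR proteins, by 0.01 (0.954). Against WT, where 29.4%, 15.1% and 22.2% of all genes were called in the inner layer, the outer layer and KO animals, 5 were higher and 1 lower in the inner layer (Camk2a 0.87, Ntrk2 0.71, Creb1 −0.54, Mapk10 0.53, Nab1 0.47 and Mef2c 0.41), and Camk2a alone was lower in the outer layer (−0.54). In KO animals Ntrk2 (0.66) and Nab1 (0.39) were higher and Creb1 (−0.45) was lower.

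Heat shock and hypoxia genes, which respond to handling and to lack of oxygen, were set beside the immediate early genes because both can be induced while tissue is being collected. Of 18 listed genes 12 were tested, and 3 were lower in the outer than in the inner layer, a share close to the 20.9% called over all genes, namely Hspa1a (−0.74), the glucose transporter gene Slc2a1 (−0.55) and Ddit4 (−0.44), with a median of −0.06. In animals 3 and 4, limma called 0 of the 12, and 4 had an unadjusted p under 0.05. Against WT the shares called over all genes are those given above. In the inner layer against WT, Vegfa (0.86), Hsp90aa1 (0.61) and Slc2a1 (0.34) were higher and Ddit3 (−0.34) was lower. In the outer layer against WT, Vegfa (0.85) was higher, and Hspa1a (−0.70), Ddit3 (−0.58) and Ddit4 (−0.41) were lower. In KO animals Vegfa (0.85) was higher and Ddit3 (−0.46) lower. How long dissection took is not stated in the labels, and its part in these values was not tested.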

How the data were processed

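Amplified, biotin-labelled RNA was read on Illumina bead arrays, per the labels' protocols. The authors deposited log2 signals for 26821 entries, in a table named as normalized. Array medians differed (6.47 to 6.96), so the log2 signals were treated as not normalized. A second deposited table holds a score for each entry. Tested on the values, this score is the log2 signal minus the array median, divided by the array SD, plus a shift on 8 arrays. The shift differed from entry to entry and was the same on the 4 shifted arrays of a layer. Across entries it followed the scaled difference between animal 5 and animals 1 to 4 in the other KO layer (r = 1). Its slope was 0.588 on the inner and 0.738 on the outer arrays. The submitters' processing notes name limma, and its version, the background step and the build are not stated there.

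Of the entries, 25697 matched a probe of the value table and 1124 did not. Of the unmatched entries 1114 were taken as negative controls, and 10 bright ones were not used. Signals were raised from log2 and passed through neqc (limma 3.58.1, R 4.3.3, offset 16). The planned test assumed a detection p-value in the files; it was instead computed as the share of controls at or above a signal. A probe entered the tests if this p-value was below 0.01 on 5 or more arrays (12077 probes, 47.0%), and a gene was represented by its brightest such probe (8442 genes). Symbols came from the platform annotation, matched to RefSeq by gene identifier. Between 10718 and 12072 probes were detected per array.

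Comparisons used lmFit and eBayes (two-sided). P-values were adjusted by Benjamini and Hochberg's method across the 12077 probes, and a gene was called when the adjusted value was under 0.05. The KO layers were compared with a block for each animal, since the series states that both layers came from the same animals. The deviations of both layers of an animal correlated with r of 0.26 to 0.77 across genes, highest in animal 5. Inner and WT arrays of the same number, which are not paired, gave −0.373 to 0.552, so these correlations do not establish the pairing. KO and WT were compared without a block. Alternatives were other normalizations, filters and offsets, the authors' scores, the shifted arrays as a batch, left-out animals and left-out arrays high in muscle or bone markers. The word batch stands below for the shifted and unshifted sets, since no label names a batch. The computation was tested on simulated data with independent noise on each array. These held no animal effect, no shifted set and no arrays high in muscle or bone markers, so they do not test those features. Named were all 9 genes, up to 10 called genes of largest difference per further list between the layers and up to 6 against WT, and the 5 genes most like in profile. A few genes that did not pass were added after their values were seen. The members and lists were chosen with earlier results of these data known.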

Additional observations from a re-analysis of the deposited data

Results flagged for a closer look

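Each of the 5 tested genes differed between the outer and the inner KO layer in a test within animals, where 20.9% of all genes passed. The layers therefore also stood differently to the same WT arrays. Junb and Dusp1 each lost the call in 10 of 16 alternatives. The outer minus inner difference was −1.31 for Egr1, −0.85 for Arc, −0.64 for Junb, −0.46 for Jun and 0.34 for Dusp1 (limma adjusted p of 0.000451, 0.00460, 0.0483, 0.0121 and 0.0317; the same direction in 5 of 5 animals for each). WT tissue was not divided into layers, so a difference between layers that the knockout brings and one that CA3 has in any case cannot be told apart. Egr1 and Dusp1 passed against WT in the inner layer and not in the outer layer, and Arc and Junb in the outer layer and not in the inner layer. Over all genes, 29.4% passed against WT in the inner layer and 15.1% in the outer layer. None of these members' calls remained with the shifted and unshifted sets as a term, where KO animal 5 alone shares the set of the WT animals. A lost call there shows little about the size of a difference. By Dixon's gap test at the 95% level no array stood outside its group of 5 for these genes. Egr1 on outer array 2 (7.96) was nevertheless the highest of its group by a visible gap. Junb on inner array 3 (5.51) and Egr1 on WT array 2 (6.87) were the lowest of theirs, also by a visible gap.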

How the results depend on the processing

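Between the layers, 5 of the 5 tested genes were called. The count was 1 with median scaling, 1 on the deposited log2 values as given, 3 on the authors' scaled values, 1 without arrays high in muscle or bone markers, 3 within the shifted arrays, 2 with no replicate block and 3 to 4 with any 1 animal left out. Egr1 kept its call in these and in all 16 alternatives run (−1.41 to −0.68, the last in SD units), and Arc, Jun, Junb and Dusp1 kept their direction but not their size or calls. Arc reached −0.18 and Jun −0.09 (authors' scaled values, SD units), Junb −0.21 (values as given) and Dusp1 0.27 to 0.50, and they lost their calls in 4, 5, 10 and 10 of the 16. Over all genes 1765 were called, against 102 with median scaling, 108 on the values as given, 706 with no replicate block, 307 without arrays high in muscle or bone markers and 983 without animal 1. On the values as given, the median of all genes moved to 0.14, against 0.03, and to 0.14, against −0.08, for the outer layer minus WT.

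For the inner layer against WT the count of 2 became 1 with median scaling and on the values as given, 0 with batch as a term, 0 within the unshifted arrays, 0 with all 15 arrays in 1 fit with animal as a random block and batch as a term (chosen after seeing the data), and 1 to 2 in leave-one-out fits. In every fit that accounts for the shifted and unshifted sets, KO animal 5 is the one KO animal in the set of the WT arrays. A lost call there therefore shows little about the size of a difference. The replicate number as a block left it at 2. Egr1 then stood at 1.05 with batch as a term (adjusted p = 0.445) and at 1.06 in the joint fit (0.150). Junb, not called, turned to 0.0667 (median scaling), 0.0975 (as given), 0.0773 (authors' scaled values), 0.133 (joint fit) and 0.0684 (without inner array 3; leave-one-out range −0.142 to 0.0684). Arc turned to −0.257 without arrays high in muscle or bone markers and to −0.0403 in the joint fit. Over all genes 2478 were called, against 421 (median scaling), 182 (as given), 1023 (scaled), 1346 (without high arrays), 7 (batch as a term), 105 (joint fit), 0 (unshifted) and 1633 without WT array 3.

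For the outer layer against WT the count of 2 became 0 with median scaling, the values as given, the scaled values, no high arrays, the replicate block, batch as a term, the unshifted arrays and the joint fit, and 0 to 2 in leave-one-out fits. Egr1 turned to 0.132 (median scaling) and 0.216 (as given), with a leave-one-out range of −0.258 to 0.0265. Jun turned to 0.0205 (median scaling), 0.104 (as given), 0.0960 (scaled), 0.0687 (batch as a term and unshifted) and 0.0987 (joint fit). Dusp1 turned to 0.143, 0.226 and 0.0470 in the same 3 scalings. Over all genes 1278 were called, against 540, 405 and 387 in those scalings, 648 with no filter on dim probes, 2 without high arrays, 4 with the replicate block, 1 with batch as a term, 1 in the joint fit, 0 in the unshifted arrays (603 at an unadjusted p under 0.05) and 3 to 2645 in leave-one-out fits.

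For KO animals against WT the count of 1 became 0 with the scaled values, no filter on dim probes, no high arrays, the replicate block, batch as a term, the unshifted arrays and the joint fit, and 0 to 1 in leave-one-out fits. With quantile normalization, median scaling, the values as given, an offset of 50 and the 15 arrays in 1 fit without batch, the 1 call was Egr1 (0.47, 0.58, 0.64, 0.53 and 0.59; adjusted p of 0.0356 to 0.0428) and not Junb (−0.16, −0.06, −0.01, −0.24 and −0.40). On the values as given Arc turned to 0.0135 and Dusp1 to 0.00651, and Jun turned to −0.0126 without high arrays (leave-one-out range −0.0629 to 0.110). Over all genes 1875 were called, against 855, 408 and 449 in those scalings, 1 with the replicate block, 1 with batch as a term, 2 in the joint fit, 0 in the unshifted arrays (283 at an unadjusted p under 0.05) and 13 to 3047 in leave-one-out fits. KO and WT animals share only a number, so the replicate block is no pairing (correlations of −0.373 to 0.552 for inner and WT deviations). The causes of these changes were not tested.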
